A study of Mus musculus with 2 samples.

Results

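Expression of 10 genes was examined in whole lungs of mice that carried Lewis lung carcinoma (LLC) cells: the AP-1 subunits Fosl1, Fosl2, Fos, Fosb, Jun, Junb and Jund and the related factors Atf3, Batf and Maff. All 14 probe sets annotated to these symbols were taken, whatever their level, and they represented 10 of the 18193 genes on the arrays that had a single-gene probe set. The genes were chosen by family, with their intensities and ratios in these same arrays known, so the values below are descriptions, and nothing is tested with them. LLC is a carcinoma line of C57BL mice whose cells form tumours in the lung after injection into the tail vein. The samples were TDAG8 LLC lung, from C57BL/6 mice injected with LLC cells overexpressing TDAG8, and Control LLC lung, from C57BL/6 mice injected with vector-transfected LLC cells. In both groups the mice were 6 to 8 weeks old, received 500000 cells in 200 µL and were sampled on day 19. TDAG8, encoded by Gpr65, is a receptor that senses acidic pH and raises cyclic AMP. Each group was 1 pool of RNA from 10 lungs, hybridised to 1 Affymetrix array, so there was no replicate, no spread between mice and no test. Both groups received LLC cells, and neither the promoter that drove TDAG8 nor the number of transfected clones was stated in the labels.

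AP-1 is a dimer of basic leucine zipper (bZIP) proteins, in which a zipper holds the partners together and a basic region grips DNA. Jun proteins can pair with themselves or with Fos proteins, whereas Fos proteins need a partner such as Jun. Many of the genes are switched on within minutes of growth factors, cytokines or stress, and in tumours and inflamed lung AP-1 is known for driving proteases, chemokines and genes of cell movement.

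The genes differed widely among themselves. Fosl1, which encodes the Fos family subunit FRA1, had the highest ratio of all 11949 measured genes by the main way of processing. Ratios are of TDAG8 LLC lung over Control LLC lung. Junb and Atf3 came next among the 10, at 1.84-fold and 1.82-fold. Fos, Batf and Fosl2 lay between 1.29-fold and 1.36-fold, and Maff was at 1.09-fold. Jun and Jund, bright on both arrays, lay slightly below 1, and Fosb was too dim to give a ratio. A gene was called measured when its brightest probe set reached the median intensity of at least 1 array, which was 24.3 in TDAG8 LLC lung and 26.3 in Control LLC lung. Lower values were raised to that floor, and the log2 ratios were centred by a shift of -0.06. By this rule 9 of the 10 genes were measured, and each of the 9 was above the floor on both arrays. Among all measured genes 474 were above the floor in TDAG8 LLC lung only. Their ratios are lower bounds, so the true ratio of some could exceed that of Fosl1. Of the 9, 1 was at least 2-fold higher, where 5.41% of all measured genes were, and 0 were at least 2-fold lower, where 1.19% of all measured genes were. With 1 array per group neither count carries a test.

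Whole lung holds many cell types and any tumour tissue in it, so marker genes give the setting of these values. All 10 lung epithelial markers were above the floor in both samples, and their summed intensity was 40601 in TDAG8 LLC lung and 54126 in Control LLC lung. All 14 measured proliferation markers of 15 listed were at least 2-fold higher, where 5.41% of all measured genes were. Their sum was 6189 in TDAG8 LLC lung and 1297 in Control LLC lung. Of 11 monocyte and macrophage markers 5 passed 2-fold upward, 1 of them, Msr1, as a bound with its control value below the floor. Another 3 of the 11 had log2 ratios below 0. Over all 11 the median log2 ratio was 0.85, and the summed intensity was 9612 in TDAG8 LLC lung and 9269 in Control LLC lung. Most of both sums came from Lyz2, at 6002 in TDAG8 LLC lung and 6650 in Control LLC lung. All 10 endothelial markers had ratios below 0, with sums of 4521 in TDAG8 LLC lung and 7956 in Control LLC lung. The part of these cell types in the AP-1 values was not tested, and in whole tissue more cells of a type and more RNA per cell cannot be told apart. Gpr65 itself was at 73.9 in TDAG8 LLC lung and 32.3 in Control LLC lung. That control value was not far above the floor of 26.3, and the part of LLC and other cells in the Gpr65 values was not tested.

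Promoter sequences of 9 of the 10 genes were matched by symbol in RefSeq, assembly GRCm38.p6, in 11 windows that run from 250 bases before to 50 bases after a transcript start. Fosl1 was not matched. Because TDAG8 raises cyclic AMP, the windows were searched for the core of the cyclic AMP response element, TGACG, on both strands, with the full palindrome TGACGTCA, which contains it. TGACG was found in 7 of the 11 windows, in 6 of the 9 genes, and in 20.8% of all 32851 windows. The windows of the 9 genes had a median GC content of 60.0%, against 52.7% over all windows, and the part of base composition in that count was not tested. TGACGTCA was found in 1 of the 11 windows and in 1.79% of all. TGANTCA, a loose form of the AP-1 site with any base allowed at its centre, was found in 0 of the 11 and in 7.81% of all. The serum response element core known as the CArG box was found in 0 of the 11 and in 1.63% of all. Sequence further from the start was not searched, so these counts do not show that a gene lacks either site. TGACATCA, a variant of the AP-1 site known from the Jun promoter and searched after that promoter had been read, was found in 2 of the 11 windows, in Jun and Maff, and in 3.62% of all. The 250 bases before the start are shown for Junb and Atf3, the highest genes after Fosl1, for Fos and Maff, which carry 2 TGACG cores and the full palindrome, and for Jun, which lacks TGACG. Capitals mark TGACG on either strand, TGACGTCA and TGACATCA.
Junb, chr8:84978749-84978998, minus strand: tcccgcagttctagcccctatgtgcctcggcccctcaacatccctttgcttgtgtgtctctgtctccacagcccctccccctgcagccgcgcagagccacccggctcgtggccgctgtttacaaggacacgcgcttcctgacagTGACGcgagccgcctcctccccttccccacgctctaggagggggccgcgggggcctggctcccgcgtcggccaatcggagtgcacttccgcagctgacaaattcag
Atf3, chr1:191183334-191183583, minus strand: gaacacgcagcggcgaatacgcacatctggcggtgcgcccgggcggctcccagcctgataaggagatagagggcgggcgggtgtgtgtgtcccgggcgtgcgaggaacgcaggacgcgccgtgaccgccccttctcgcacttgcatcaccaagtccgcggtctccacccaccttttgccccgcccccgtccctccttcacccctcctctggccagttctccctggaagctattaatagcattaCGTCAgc
Fos, chr12:85473640-85473889, plus strand: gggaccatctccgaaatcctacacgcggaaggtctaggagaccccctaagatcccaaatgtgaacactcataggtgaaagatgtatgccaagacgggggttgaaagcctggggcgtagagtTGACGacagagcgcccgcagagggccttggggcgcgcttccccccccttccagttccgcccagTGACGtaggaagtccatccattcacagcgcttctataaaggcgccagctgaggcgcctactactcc
Maff, chr15:79347270-79347519, plus strand: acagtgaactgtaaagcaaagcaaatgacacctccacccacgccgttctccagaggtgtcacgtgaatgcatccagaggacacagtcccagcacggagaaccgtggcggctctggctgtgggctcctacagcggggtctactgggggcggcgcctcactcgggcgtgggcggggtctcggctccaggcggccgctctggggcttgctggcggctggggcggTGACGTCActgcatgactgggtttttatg
Jun, chr4:95052223-95052472, minus strand: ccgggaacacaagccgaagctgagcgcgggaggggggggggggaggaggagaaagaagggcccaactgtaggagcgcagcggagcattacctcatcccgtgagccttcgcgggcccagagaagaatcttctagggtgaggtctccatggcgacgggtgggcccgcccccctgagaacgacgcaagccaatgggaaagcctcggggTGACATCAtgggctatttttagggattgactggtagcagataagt
The first marked base lies 106 bases before the start in Junb, 7 before it in Atf3, 129 and 66 before it in Fos, 29 before it in Maff and 45 before it in Jun. Fosb, at 60 bases before the start, and Batf, at 98, also held TGACG, whereas the windows of Fosl2 and Jund held none of the motifs. These letters describe the windows and do not show that a factor was bound there. Junb and Atf3, with the larger ratios, and Fosb, below the floor, all held the core.

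In the Fos family, Fosl1 stood far from its relatives. FRA1 lacks the strong activation domain of FOS, accumulates under lasting ERK signalling and is known from motile, mesenchymal tumour cells. Fosl1, on chromosome 19, had an intensity of 320.0 in TDAG8 LLC lung and 27.2 in Control LLC lung, by its brighter probe set 1417487_at. The TDAG8 value was clear of the floor and the control value sat just above it. The log2 ratio was 3.61, or 12.3-fold, and its rank was 1 of 11949 genes. The other probe set, 1417488_at, read 82.3 in TDAG8 LLC lung and 5.8 in Control LLC lung. Here the control value was below the floor, so that probe set gave a bound of at least 3.26-fold. Both Fosl1 probe sets were thus higher in TDAG8 LLC lung, with a control value just above the floor in the brighter and below it in the dimmer. The ratio of the brighter probe set was a log2 ratio of 3.63 with a lower floor, set at percentile 30. It was at least 5.30-fold with a higher floor, set at percentile 65, or 59.9 in TDAG8 LLC lung and 62.0 in Control LLC lung, and 6.74-fold when an offset of the median intensity replaced the floor. Its rank was 13 of 9662 genes with the higher floor and 9 of 11960 as the mean over its probe sets, and stayed at 1 under the other 6 alternatives.

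The other Fos genes gave small ratios or none. Fosl2, which encodes FRA2 and is on chromosome 5, read 393 in TDAG8 LLC lung and 319 in Control LLC lung by probe set 1437247_at, a log2 ratio of 0.36. Its dimmer probe set, 1422931_at, read 29.1 in TDAG8 LLC lung and 31.1 in Control LLC lung, close to both floors, with a log2 ratio of -0.04. The Fosl2 probe sets therefore did not share a sign, and they differed by 0.40 on the log2 scale. Among 4775 genes with a second probe set above the floor on both arrays, the median difference between their brightest pair was 0.20 and the 95th percentile was 0.74, and the Fosl2 gap lay between those values. Fos, the classic immediate early gene on chromosome 12, read 356.5 in TDAG8 LLC lung and 273.7 in Control LLC lung. Its log2 ratio was 0.44, and 20.03% of measured genes were as high or higher. Fosb, on chromosome 7, whose product and its truncated form are best known from stimulated neurons, read 7.3 in TDAG8 LLC lung and 14.0 in Control LLC lung. Both values were below the floor, so no ratio is given.

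**Figure D1:**
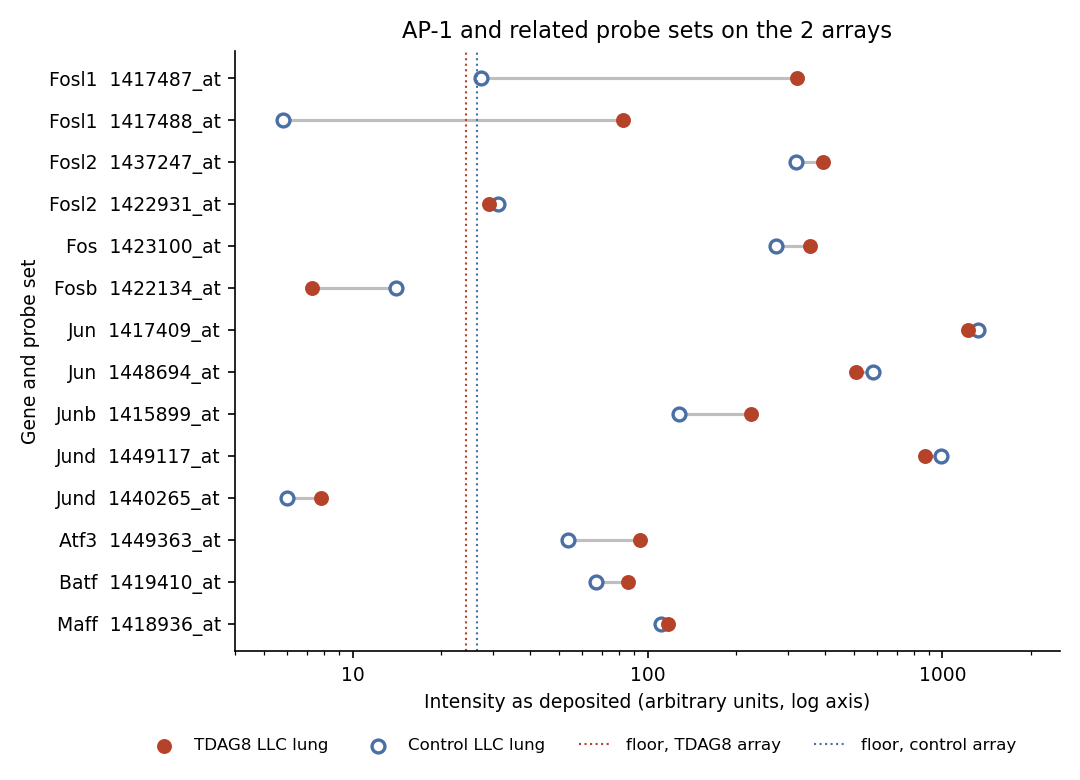
Intensity as deposited (log axis, arbitrary units) of all 14 probe sets of the 10 genes, with filled points for TDAG8 LLC lung, open points for Control LLC lung and dotted lines for the floors of 24.3 and 26.3. The Fosl1 probe sets have the widest gaps, with control points at 27.2 and 5.8, the Jun points nearly coincide, and both points lie below the floors for Fosb and for the second Jund probe set.

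The Jun family split between Junb and the other two. JUNB is a Jun protein with weaker activating capacity than JUN, induced by cytokines and growth factors and known for roles in T helper cells, myeloid cells and the skin. Junb, on chromosome 8, read 225 in TDAG8 LLC lung and 127.5 in Control LLC lung. Its log2 ratio of 0.88, or 1.84-fold, ranked 852 of 11949, and 7.13% of measured genes were as high or higher. Junb was read by 1 probe set. Jun, on chromosome 4, encodes the founding AP-1 protein, a target of JNK kinases. Probe set 1417409_at of Jun read 1217 in TDAG8 LLC lung and 1324 in Control LLC lung, and probe set 1448694_at read 510 in TDAG8 LLC lung and 583 in Control LLC lung. Both were slightly lower in TDAG8 LLC lung, with log2 ratios of -0.06 and -0.13 that differed by 0.07. Jund, on chromosome 8, encodes the broadly expressed Jun protein that is least dependent on stimulation. It read 870 in TDAG8 LLC lung and 989 in Control LLC lung by probe set 1449117_at, a log2 ratio of -0.13. Its second probe set, 1440265_at, read 7.8 in TDAG8 LLC lung and 6.0 in Control LLC lung, below both floors. The bright Jun and Jund signals were thus nearly the same in both samples, while the ratio of Junb lay 0.94 above that of Jun on the log2 scale.

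The related factors were all above 0. ATF3 is a stress-induced bZIP protein that pairs with Jun proteins or itself and restrains inflammatory genes in macrophages. Atf3, on chromosome 1, read 94.0 in TDAG8 LLC lung and 53.8 in Control LLC lung, a log2 ratio of 0.86 or 1.82-fold. With that higher floor its control value lay below it, and the log2 ratio became a lower bound of 0.64. BATF pairs with Jun proteins, has no activation domain of its own and is needed for T helper 17 cells and for antibody class switching. Batf, on chromosome 12, read 85.8 in TDAG8 LLC lung and 66.9 in Control LLC lung, a log2 ratio of 0.42. The 10 measured T cell markers of 12 listed had a median log2 ratio of 0.19, with sums of 644 in TDAG8 LLC lung and 575 in Control LLC lung. The 2 highest of them, Ctla4 and Icos, were bounds with a control value below the floor. MAFF is a small MAF protein that pairs with NRF-type factors at antioxidant elements. Maff, on chromosome 15, read 117 in TDAG8 LLC lung and 111.5 in Control LLC lung, a log2 ratio of 0.13. The Maff values lay closer together than those of Atf3 or Batf.

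Over the 9 measured genes 7 had ratios above 0 and 2 below, with a median log2 ratio of 0.42, where 5963 of all 11949 genes were above 0 and the median was -0.00094. Without replicates the spread of all genes at a like level was used as a yardstick. Genes above the floor on both arrays were split by mean log2 level into 3 equal groups, and the central 95% of log2 ratios ran from -0.94 to 1.32 in the dim group, from -0.85 to 1.42 in the middle group and from -0.83 to 1.18 in the bright group. Fosl1 lay outside the range of its group. Junb, in the middle group, Atf3, in the dim group, and the other 6 measured genes lay inside theirs. That spread contains real differences as well as array noise, so it is no error bar for a single gene.

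**Figure D2:**
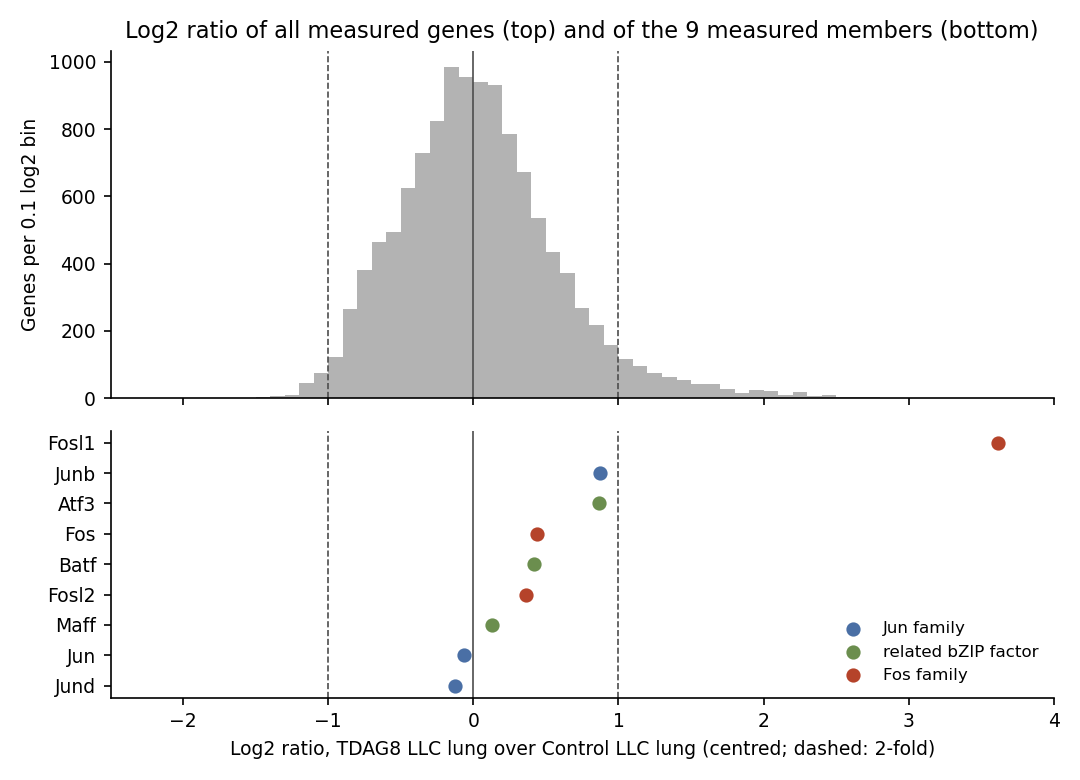
Log2 ratio of TDAG8 LLC lung over Control LLC lung, as the number of genes per bin for all 11949 measured genes (top) and as 1 point per gene for the 9 measured AP-1 and related genes (bottom), with dashed lines at 2-fold. Fosl1 lies alone at 3.61, Junb and Atf3 lie at 0.88 and 0.86 just inside the 2-fold line, and Jun and Jund lie just below 0.

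The bZIP family reaches well beyond AP-1, and in the main setting most measured genes of each other branch had log2 ratios below 0. The values overlapped with those of the AP-1 genes, of which Jun and Jund were also below 0. Of 43 further bZIP genes listed, 36 were measured, 13 were above 0 and 23 below, and the median log2 ratio was -0.20. Of the 36, 1 passed 2-fold upward, where 5.41% of all measured genes did, and 2 downward, where 1.19% did. In the branch of C/EBP and PAR factors, with 9 measured and a median of -0.30, Tef, a clock-controlled activator, read 525 in TDAG8 LLC lung and 1104 in Control LLC lung, 2.02-fold lower, though it fell short of 2-fold in 4 of the 8 other ways of processing. Hlf, another PAR activator, read 79.7 in TDAG8 LLC lung and 153 in Control LLC lung, a log2 ratio of -0.89. Nfil3, a repressor that competes with the PAR activators for their sites, read 67.5 in TDAG8 LLC lung and 14.3 in Control LLC lung and was at least 2.67-fold higher, against a control value below the floor. With the higher floor that bound was a log2 ratio of 0.16. The PAR activators and their repressor thus lay on opposite sides of 0. Cebpb, a factor of macrophages and the acute phase, read 1305 in TDAG8 LLC lung and 1069 in Control LLC lung, a log2 ratio of 0.35.

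In the MAF and CNC branch, which supplies the partners of MAFF, 8 genes were measured with a median of -0.10. Bach2, a repressor of B and T cells, read 116 in TDAG8 LLC lung and 247 in Control LLC lung, 2.04-fold lower, with a log2 ratio between -1.10 and -0.73 over all ways of processing. The 4 measured B cell markers of 6 listed also had ratios below 0, with sums of 405 in TDAG8 LLC lung and 548 in Control LLC lung, and their part in the Bach2 value was not tested. Nfe2l1, a regulator of proteasome genes, had a log2 ratio of -0.74, and Maf, a factor of macrophages and T cells, 0.51. Nfe2l2, which encodes the antioxidant regulator NRF2, read 1126 in TDAG8 LLC lung and 1153 in Control LLC lung, a log2 ratio of 0.02. In the ATF and CREB branch, 19 genes were measured, 0 passed 2-fold in either direction and the median was -0.17. Of all measured genes, 5.41% passed it upward and 1.19% downward. With the floor at percentile 30, 1 gene of the branch was at least 2-fold lower. Creb5 was at 0.91, Crebl2 at -0.61, Atf5 at -0.49 and Xbp1, a factor of the secretory stress response, at -0.20.

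Genes that feed AP-1 or that are induced alongside it were set beside it. Of 30 listed kinases, small GTPases and ternary complex factors upstream of AP-1, 23 were measured, 13 were above 0, 0 passed 2-fold and the median was 0.13. Among all measured genes 5.41% passed 2-fold upward and 1.19% downward. With the floor at percentile 30, 1 upstream gene was at least 2-fold lower. Mapk7, the kinase ERK5, was at 0.69, Map2k1, the kinase MEK1, at 0.53, Map3k5, a stress kinase, at -0.47 and Elk4, a partner of serum response factor, at -0.39. These are RNA levels and say nothing of kinase activity. Of 28 other immediate early genes 27 were measured, and 17 of them were below 0, with a median of -0.15. Socs3, a feedback inhibitor of cytokine signalling, read 503 in TDAG8 LLC lung and 146 in Control LLC lung, 3.59-fold, but its log2 ratio was 0.95 where only probe sets that cannot share sequence between genes were kept. Plk3, a stress kinase, read 59.5 in TDAG8 LLC lung and 27.8 in Control LLC lung, 2.23-fold, with a control value just above the floor and a log2 ratio of 0.70 with an offset in place of the floor. Those were the 2 of the 27 measured immediate early genes past 2-fold. Ier5 was at 0.75 and Rhob, the brightest of the list, at -0.15. Egr1, an immediate early gene often induced together with Fos and named here after its value was seen, read 218 in TDAG8 LLC lung and 272.5 in Control LLC lung, a log2 ratio of -0.26.

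ERK feedback genes, whose RNA follows ERK signalling in many cells, had 9 of 11 measured members above 0 and a median of 0.32. Dusp5, a nuclear ERK phosphatase, read 101 in TDAG8 LLC lung and 40.5 in Control LLC lung, 2.60-fold, or at least a log2 ratio of 0.75 with the higher floor. Dusp6, the cytoplasmic ERK phosphatase and brightest of the list, read 1222.5 in TDAG8 LLC lung and 739.7 in Control LLC lung, 1.72-fold. Spry1, an inhibitor of receptor kinase signalling, read 269 in TDAG8 LLC lung and 482 in Control LLC lung, 1.72-fold lower. The phosphatase genes and Spry1 thus differed in direction within the same list.

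Among 30 genes widely described as AP-1 targets 22 were measured, 4 had no single-gene probe set and 4 were below the floor on both arrays. Of the 22, 18 were above 0, and the median log2 ratio was 0.64. At least 2-fold higher were 8, where 5.41% of all measured genes were, and at least 2-fold lower were 0, where 1.19% were. The list was drawn up with results of these data known, so these counts are descriptions. Of the 8, 2 had a control value below the floor. Most of these genes also answer to other factors such as NF-κB, so the list does not isolate AP-1. Ccl2, a monocyte chemoattractant, read 849 in TDAG8 LLC lung and 126 in Control LLC lung, a log2 ratio of 2.81. Timp1, an inhibitor of metalloproteinases, read 396 in TDAG8 LLC lung and 103 in Control LLC lung, a log2 ratio of 2.00. Ereg, a ligand of the EGF receptor, read 100.1 in TDAG8 LLC lung and 15.9 in Control LLC lung, at least 3.96-fold higher against a control value below the floor, or a log2 ratio of at least 0.73 with the higher floor. Vim, the mesenchymal intermediate filament and brightest of the list, read 6616 in TDAG8 LLC lung and 4839 in Control LLC lung, a log2 ratio of 0.51. The monocyte and proliferation markers given above also had medians above 0, and their part in it was not tested.

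ATF3 also belongs to the integrated stress response, a program led by ATF4. Of 12 listed genes of that response 11 were measured and 5 were above 0, with a median of -0.01. Of the 11, 3 were at least 2-fold higher, where 5.41% of all measured genes were. The 3 were Psat1, of serine synthesis, at 342 in TDAG8 LLC lung and 101 in Control LLC lung, Sesn2, a stress-induced inhibitor of mTORC1 signalling, at 2.68-fold, or a log2 ratio of 0.43 as the mean over its probe sets, and Asns, which makes asparagine, at 2.39-fold. Hspa5, the chief chaperone of the endoplasmic reticulum, was at 0.25. The amino acid genes and the chaperone gene therefore did not share a size of ratio.

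**Figure D3:**
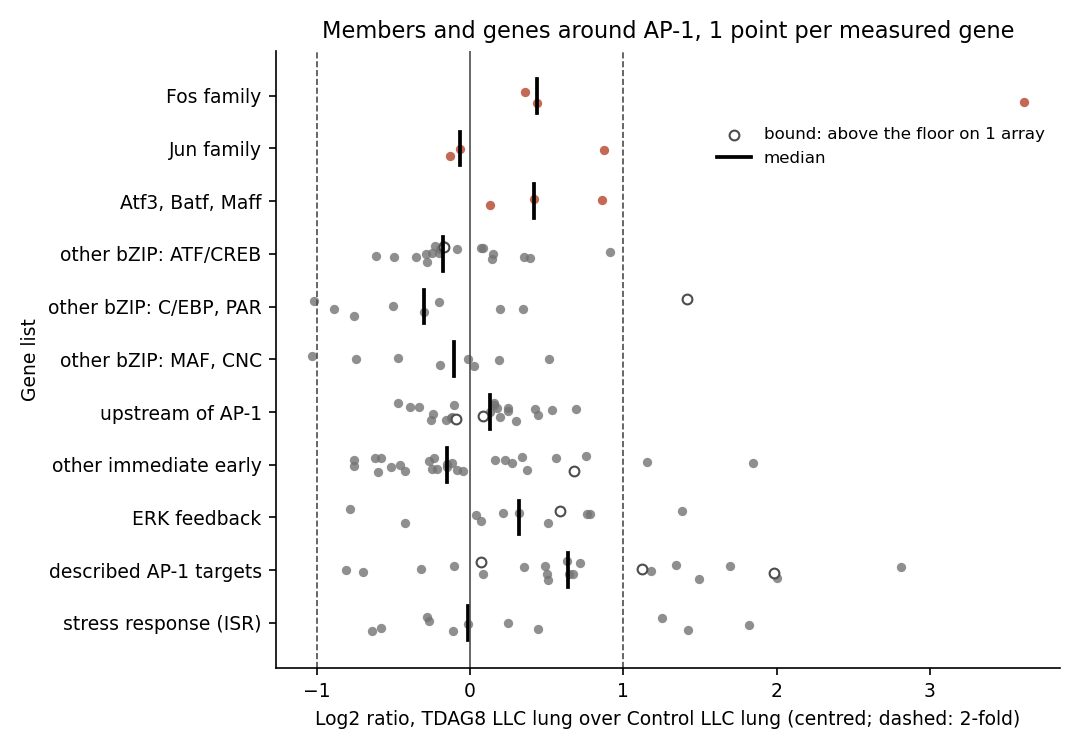
Log2 ratio of TDAG8 LLC lung over Control LLC lung, 1 point per measured gene, for the AP-1 and related genes (red) and the lists around them (grey), with bars at list medians, dashed lines at 2-fold and open points for genes above the floor on 1 array only. Medians run from -0.30 for the C/EBP and PAR branch to 0.64 for described AP-1 targets, and Fosl1 at 3.61 lies beyond every other point.

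The ratios of the 9 measured genes were recomputed in 8 other ways. All 9 kept their sign in all of them, and Fosl1 was the only 1 of them past 2-fold each time. Every way reused the same 2 arrays, so the kept signs say nothing of spread between mice. Some ways could change little here. For Fos, Junb, Jund, Atf3, Batf and Maff the mean over probe sets equalled the main value. No probe set of the 9 genes was of a type that can share sequence, so leaving such probe sets out changed only the centring. Fosl1 had the widest range, from 2.41 to 3.64 on the log2 scale. Junb ranged from 0.76 to 0.90, Atf3 from 0.63 to 0.91 and Fos from 0.37 to 0.46. Fosl2 ranged from 0.16 to 0.38, its lowest value being the mean over its probe sets. Jun stayed between -0.12 and -0.04 and Jund between -0.21 and -0.11.

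**Figure D4:**
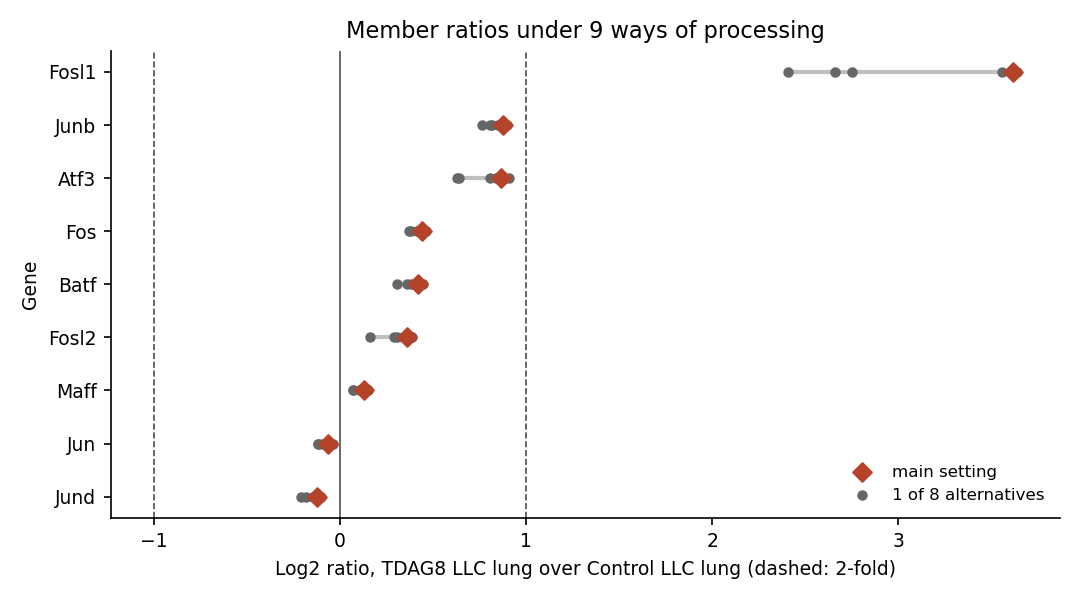
Log2 ratio of TDAG8 LLC lung over Control LLC lung for the 9 measured genes under the main setting (diamonds) and 8 alternatives (points), with dashed lines at 2-fold. Fosl1 spans 2.41 to 3.64, and the other genes each keep to a narrow range on 1 side of 0.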

How the data were processed

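Total RNA of 10 whole lungs was pooled per group, and 2 µg was turned into biotin-labelled cRNA by the Affymetrix procedure, per the labels' protocols. The deposited values are intensities on a linear scale, which the authors had scaled to a trimmed mean of 100 per array (2% left out at each end, a property read from the values). No label or header names the image software, and no detection calls were used. Of 45101 probe sets 64 controls were set aside, and 34945 had 1 gene symbol in the platform annotation, 932 several. Of the 34945, 34741 were matched by gene identifier to RefSeq assembly GRCm38.p6 for symbols and chromosomes. The brightest probe set stood for a gene, which gave 18193 genes, and the 50th percentile of each array was the floor. Genes dimmer than this on both arrays were dropped, so 11949 genes were measured, of which 11044 passed on both. Log2 ratios of TDAG8 LLC lung over Control LLC lung were centred on the median of those 11044 genes. Maxima were 8731 in TDAG8 LLC lung and 10112 in Control LLC lung. A single array per group limits the precision.

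The genes, the lists and the limit of 2-fold were chosen with earlier results of these data known. The genes named were all 10 members, Gpr65, and for each list its 3 measured genes with the largest log2 ratio in either direction and its brightest gene. Egr1 was added after its value was seen, and of the cell type markers only Lyz2, Msr1, Ctla4 and Icos were named. The procedure was tested on simulated data. The other ways of processing were uncentred ratios, quantile normalization, a loess fit in place of the median (span 0.3), a floor at percentile 30 or 65, an offset of the 50th percentile, the mean over a gene's probe sets, and only probe sets that cannot share sequence between genes. Python 3.11.15 with pandas 2.3.3, numpy 2.4.6 and statsmodels 0.14.6 was used.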

Additional observations from a re-analysis of the deposited data

How the results depend on the processing

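The number of AP-1 and related genes at least 2-fold higher was 1 and the number at least 2-fold lower was 0 under all 8 alternatives, and the median log2 ratio ranged from 0.34 to 0.44. Among all measured genes, the share past 2-fold is known here for the main setting only, 5.41% upward and 1.19% downward. The counts under the alternatives, here and for the described AP-1 targets below, therefore have no such share to be set against. Fosb could be computed with the floor at percentile 30 alone, where it was at least 1.70-fold lower. The median of the 36 other measured bZIP genes ranged from -0.26 to -0.06, and that of the described AP-1 targets from 0.52 to 0.70, with 6 to 9 genes at least 2-fold higher. The integrated stress response median ranged from -0.24 to 0.14 and that of the MAF and CNC branch from -0.22 to 0.01, so neither had a settled sign. No paired analysis was possible because each group had 1 array. Control signals near or below the floor, such as those of Fosl1, Nfil3 and Ereg, limit what their ratios can show: over all ways of processing the log2 ratio ran from 2.41 to 3.64 for Fosl1, from 0.16 to 2.32 for Nfil3 and from 0.73 to 2.73 for Ereg.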
